A study of Malus domestica with 4 samples.

Results

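The genes described here were at least doubled in apple cortex kept at 0.8 kPa oxygen and were close to their starting level at 0.4 kPa. They were selected on 3 values of each gene, namely its CPM (the estimated count per 1000000 counts of its column) in T0, 0.4ox and 0.8ox. A gene was kept with at least 10 CPM in 0.8ox, a log2 ratio 0.8ox/T0 of at least 1 and a log2 ratio 0.4ox/T0 between -0.5 and 0.5, both ratios on the scale of CPM + 0.5. The rule was met by 88 of 63514 genes, which is 0.654% of the 13446 genes with at least 10 CPM in 0.8ox. All ratios among T0, 0.4ox and 0.8ox are therefore a description of the choice and carry no test.

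RNA was sequenced from equatorial cortex slices of detached fruit of the cultivar Granny Smith. The T0 group was kept in normal air in the cold before the oxygen was lowered. The 0.4ox and 0.8ox groups had then spent 24 days at 0.4 or 0.8 kPa oxygen in the same cold. A shifted group was moved from 0.4 to 0.8 kPa, and its sampling day is not given by the labels. In the study the oxygen was raised after the 24-day sampling, so the shifted fruit was stored longer than 0.8ox. All groups share cultivar, tissue and cold storage, and time in storage cannot be told apart from low oxygen in a ratio to T0. The study set each low oxygen level in its own chamber, in nitrogen with CO2. The CO2 cannot be told apart from oxygen in a ratio to T0, nor can the chamber in a ratio 0.8ox/0.4ox. Likewise, storage time and oxygen history cannot be told apart in a ratio shifted/0.8ox. Cortex is a mixed tissue in which fewer cells of a type and less RNA per cell cannot be told apart.

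Detached fruit goes on respiring, and when oxygen falls low enough its cells turn to fermentation and sugar breakdown to make ATP. Low oxygen also holds back ripening, because the last step of ethylene synthesis uses oxygen and ethylene drives softening, aroma formation and sugar release. In apple, sorbitol carried by polyol transporters is a main transported form of carbon, and the cortex wall is loosened by enzymes that act on xyloglucan, pectin and cellulose.

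The estimated counts summed to between 5445598 and 9553180 in T0, 0.4ox and 0.8ox. In the table that pairs 0.8ox with the shifted group they summed to 5363827 and 4865029. Each condition is 1 estimated count merged from 3 libraries, so the errors given are modelled from the deposited variance and no library could be left out. On the same scale, pyruvate decarboxylase MDP0000800945, an enzyme of ethanolic fermentation, stood at 89.5 CPM in T0, 8762 CPM in 0.4ox and 5697 CPM in 0.8ox. The ripening gene for the ethylene-forming enzyme, MDP0000195885, stood at 107 CPM, 2610 CPM and 6460 CPM. Neither is a member.

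The median member had 11.8 CPM before storage (range 0.733 to 668), 12.9 CPM in 0.4ox (1.16 to 926) and 32.3 CPM in 0.8ox (10.2 to 1353). Most lay near the lower bound of the rule. The fold 0.8ox/T0 ran from 2.01 to 11.2 with a median of 2.32, and the log2 ratio was under 1.5 in 66 members, 1.5 to 2 in 12 and 2 or more in 10. In 0.4ox, 67 members stood above T0 and 21 below, with a median log2 ratio of 0.27, and 47 of them exceeded 0.25. Because of that, the direct log2 ratio 0.8ox/0.4ox was smaller, with a median of 1.09 and a range of 0.53 to 3.05, and 34 members stayed under 1. The SE of these ratios had a median of 0.21 for 0.8ox against T0, 0.25 for 0.4ox against T0 and 0.24 between the oxygen levels.

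**Figure D1:**
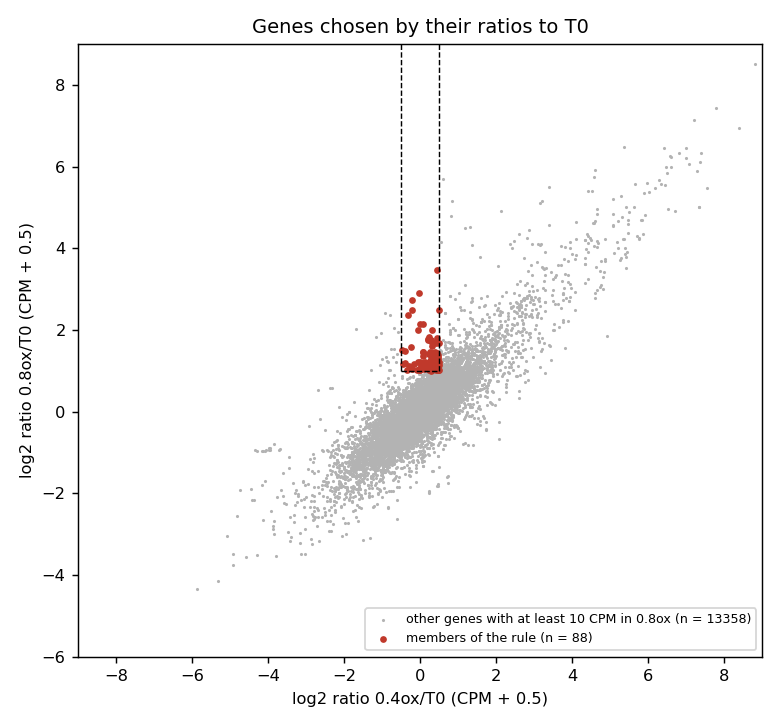
Each point is 1 gene with at least 10 CPM in 0.8ox. The x axis is the log2 ratio 0.4ox/T0 and the y axis the log2 ratio 0.8ox/T0, both of CPM + 0.5, and the dashed lines are the bounds of the rule. Most of the 88 members (red) sit just above the lower bound of 1, at the upper edge of the main cloud of genes, and 10 reach 2 or more.

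In a fit over all genes, at an adjusted p under 0.001, 87 of the 88 members passed as higher in 0.8ox than in T0, against 6.69% of all tested genes. None of the 87 members tested passed as different between 0.4ox and T0, against 16.9% of all tested genes, while 10 had an unadjusted p under 0.05. As higher in 0.8ox than in 0.4ox 54 of 88 members passed, against 1.54% of all tested genes. The rule used these contrasts, so nothing is read from the counts.

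The genes at the bounds show how fine the choice is. In 0.8ox, MDP0000700223 with 10.2 CPM and MDP0000597773 with 10.6 CPM lay just inside, and MDP0000889931 and MDP0000232764, both with 9.88 CPM, just outside. For the log2 ratio 0.8ox/T0, MDP0000870821 at 1.004 and MDP0000363622 at 1.01 were inside, and MDP0000943804 at 0.999 and MDP0000142854 at 0.993 outside. At the upper bound of 0.4ox/T0, MDP0000877281 at 0.497 and MDP0000134278 at 0.495 were inside, and MDP0000607969 at 0.507 and MDP0000292319 at 0.515 outside. At its lower bound, MDP0000212007 at -0.49 and MDP0000119071 at -0.45 were inside, and a sulfate transporter gene, MDP0000356821 at -0.60, and a protein kinase gene, MDP0000293264 at -0.61, were outside. Except at the lower bound of 0.4ox/T0, where they were wider, the gaps between ratios inside and outside were under 0.05, against a smallest SE of 0.16 for 0.8ox/T0 and 0.19 for 0.4ox/T0 among the members.

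Of the 88 members, 35 could be given a name from the annotation that accompanied the study and 53 could not. Names were at hand for only 1.86% of all genes with at least 10 CPM in 0.8ox and for 39.8% of the members. The named genes come in part from the study's own tables of genes that differ between the oxygen levels, so their share and their direction are not independent evidence. The unnamed members had a 0.8ox level of 10.2 to 1353 CPM and a fold 0.8ox/T0 of 2.01 to 4.43, and the named members 10.6 to 906 CPM and 2.02 to 11.2. CPM is not corrected for gene length, so levels are compared within a gene and not between genes.

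Cell wall enzymes included a gene for xyloglucan endotransglucosylase/hydrolase 6, an enzyme family that cuts and rejoins the xyloglucan tethers between cellulose fibrils. MDP0000310152 stood at 441 ± 37.3 CPM (modelled SD) in T0, 430 ± 50.9 CPM in 0.4ox and 906 ± 87.2 CPM in 0.8ox. Its levels in T0 and 0.4ox differed by less than their SD, and the 0.8ox level was 2.05-fold that of T0. A second gene of the same name, MDP0000213179, stood at 96.8, 98 and 211 CPM. A glycosyl hydrolase family gene, MDP0000450710, stood at 20.9 ± 2.03, 25.1 ± 3.10 and 58.7 ± 5.09 CPM, 2.77-fold higher in 0.8ox than in T0. In all 3 genes the 0.8ox level stood clear of both others by more than their SD.

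Genes of sugar metabolism were those of trehalose. Trehalose phosphate synthase makes trehalose 6-phosphate, a signal of sugar supply in plants, and trehalase splits trehalose into glucose. The synthase gene MDP0000135837 stood at 32.8 ± 2.91 CPM in T0, 32.4 ± 3.88 CPM in 0.4ox and 76.8 ± 6.49 CPM in 0.8ox. The trehalase 1 genes MDP0000235673 and MDP0000315187 held identical counts and stood at 13.3 ± 1.46, 14.1 ± 1.94 and 37.5 ± 3.5 CPM. The gene named for the synthase and the genes named for trehalase therefore had like levels in T0 and 0.4ox and folds of 2.32 and 2.75 in 0.8ox. Beta glucosidase 12, MDP0000234499, of a family that releases glucose from glucosides, stood at 9.16, 11.3 and 32.2 CPM, 3.39-fold higher in 0.8ox than in T0.

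UDP-glucosyltransferase 74F2, the name of a pair of members, is in Arabidopsis an enzyme that adds glucose to salicylic acid. MDP0000150382 stood at 99.9 ± 7.71 CPM in T0, 78.2 ± 8.73 CPM in 0.4ox and 202 ± 16.4 CPM in 0.8ox. MDP0000203897 stood at 32.4, 26.1 and 70.4 CPM. Both were lower in 0.4ox than in T0, with log2 ratios of -0.35 (SE 0.19) and -0.31 (SE 0.22). Their ratio 0.8ox/0.4ox, 2.58-fold and 2.67-fold, was therefore wider than their 2.02-fold and 2.16-fold ratio to T0. In the counts paired with the shifted group, 0.8ox held only 32.1% of the MDP0000203897 count used here, so its levels are uncertain.

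The highest fold of all members was that of MDP0000199152, named terpene synthase 02 after a volatile terpene synthase of Arabidopsis. It stood at 0.733 ± 0.277 CPM in T0, 1.16 ± 0.461 CPM in 0.4ox and 13.3 ± 1.59 CPM in 0.8ox, 11.2-fold on the scale of CPM + 0.5. The gene of an S-adenosyl-L-methionine-dependent methyltransferase, MDP0000886138, stood at 1.92 ± 0.453, 1.86 ± 0.584 and 17.5 ± 1.93 CPM, 7.47-fold. Both genes were near the lower end of detection in T0 and 0.4ox and plainly counted in 0.8ox.

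Transport genes were 6 of the named members. A polyol/monosaccharide transporter 5 gene, MDP0000940086, of the proton symporters that carry sorbitol and hexoses, stood at 26.7 ± 2.45 CPM in T0, 33.4 ± 3.95 CPM in 0.4ox and 109 ± 8.92 CPM in 0.8ox, 4.01-fold. The amino acid permease gene MDP0000134278 stood at 3.67 ± 0.631, 5.38 ± 1.04 and 22.8 ± 2.36 CPM, 5.58-fold, and had one of the highest 0.4ox/T0 ratios that the rule allowed. Amino acid transporter 1, MDP0000157111, in Arabidopsis a carrier of cationic amino acids, stood at 1.91 ± 0.448, 1.57 ± 0.537 and 13.1 ± 1.57 CPM, 5.65-fold. These 3 carriers had folds well above the members' median of 2.32.

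The other transport genes coded for mitochondrial substrate carriers, which move cofactors and organic acids across the inner mitochondrial membrane. MDP0000119071 stood at 41.9, 30.5 and 95 CPM in T0, 0.4ox and 0.8ox, and MDP0000137441 at 39.3, 29.4 and 91.1 CPM. They share the Arabidopsis orthologue AT1G14560, a coenzyme A carrier, and their values ran side by side, with log2 ratios 0.4ox/T0 of -0.45 and -0.41 and folds 0.8ox/0.4ox of 3.08 and 3.06. In the counts paired with the shifted group, however, 0.8ox held only 30.9% and 27.2% of their counts used here. Whether the 2 copies share reads was not tested, so their likeness is not independent. MDP0000258752, with the orthologue AT5G01340, a succinate and fumarate carrier, stood at 4.81, 4.25 and 11.4 CPM.

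Signalling genes held a receptor of ethylene and a receptor-like kinase. Ethylene response sensor 1, MDP0000288468, which represses the ethylene response until the hormone binds, stood at 13.9 ± 1.5 CPM in T0, 11.8 ± 1.70 CPM in 0.4ox and 29.3 ± 2.86 CPM in 0.8ox. Its fold to T0 was 2.08, close to the bound of the rule. MDP0000198757, named suppressor of npr1-1 constitutive 4 after a defence-linked receptor-like kinase of Arabidopsis, stood at 15.0 ± 1.58, 12.9 ± 1.86 and 103 ± 8.49 CPM, 6.67-fold. A second gene of that name, MDP0000927351, stood at 3.06, 2.36 and 17.7 CPM, 5.11-fold, and its level in 0.4ox was also a little under that in T0. In the 0.8ox/0.4ox ratio the pair reached 7.73-fold and 6.38-fold.

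Transcription regulators had mostly low counts. The exception was BEL1-like homeodomain 6, MDP0000248279, of a homeodomain family that pairs with KNOX proteins, at 274 ± 21.6 CPM in T0, 356 ± 40.5 CPM in 0.4ox and 760 ± 70.0 CPM in 0.8ox. Phytochrome interacting factor 3, MDP0000205358, a bHLH factor of light signalling in Arabidopsis, stood at 38.0 ± 3.26, 37.4 ± 4.32 and 78.1 ± 6.56 CPM. The 0.4ox level thus lay above T0 in the first gene and level with it in the other.

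The remaining regulators stayed below 20 CPM in 0.8ox. The genes named transcription factor-related, MDP0000437886 and MDP0000597773, stood at 6.28, 5.26 and 19.8 CPM and at 4.31, 4.10 and 10.6 CPM. An Integrase-type gene of the AP2/ERF DNA-binding family, MDP0000683814, stood at 3.28, 3.90 and 12.8 CPM. The genes for LOB domain-containing protein 11, MDP0000218986 and MDP0000318244, held identical counts and stood at 3.04, 3.81 and 11.3 CPM. In each of them the T0 and 0.4ox levels differed by at most about their SD.

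Genes that act on RNA included fibrillarin 1, MDP0000222964, the methyltransferase of ribosomal RNA in the nucleolus, with 23.7 ± 2.23 CPM in T0, 31.5 ± 3.78 CPM in 0.4ox and 76.7 ± 6.48 CPM in 0.8ox. A PHF5-like gene, MDP0000499668, of a splicing factor family, stood at 7.51, 7.93 and 20.1 CPM. Poly(A)-binding protein 5, which binds the tail of messenger RNA, was represented by MDP0000212007 with 3.98, 2.68 and 12.1 CPM and MDP0000224417 with 3.87, 2.80 and 11.7 CPM. The pair of poly(A)-binding genes lay lower in 0.4ox than in T0 and fibrillarin 1 higher.

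The last named members were enzymes of broad families. A DHHC-type zinc finger gene, MDP0000202548, of the enzymes that attach palmitate to proteins, stood at 4.32, 4.99 and 15.7 CPM. The NAD(P)-binding Rossmann-fold genes MDP0000219532, MDP0000681131 and MDP0000383328, all with the orthologue AT4G24220, stood at 9.44, 5.32 and 3.17 CPM in T0, at 11.5, 6.63 and 3.75 CPM in 0.4ox and at 32.4, 17.3 and 12.1 CPM in 0.8ox. Their folds to T0 were 3.31, 3.05 and 3.44.

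**Figure D2:**
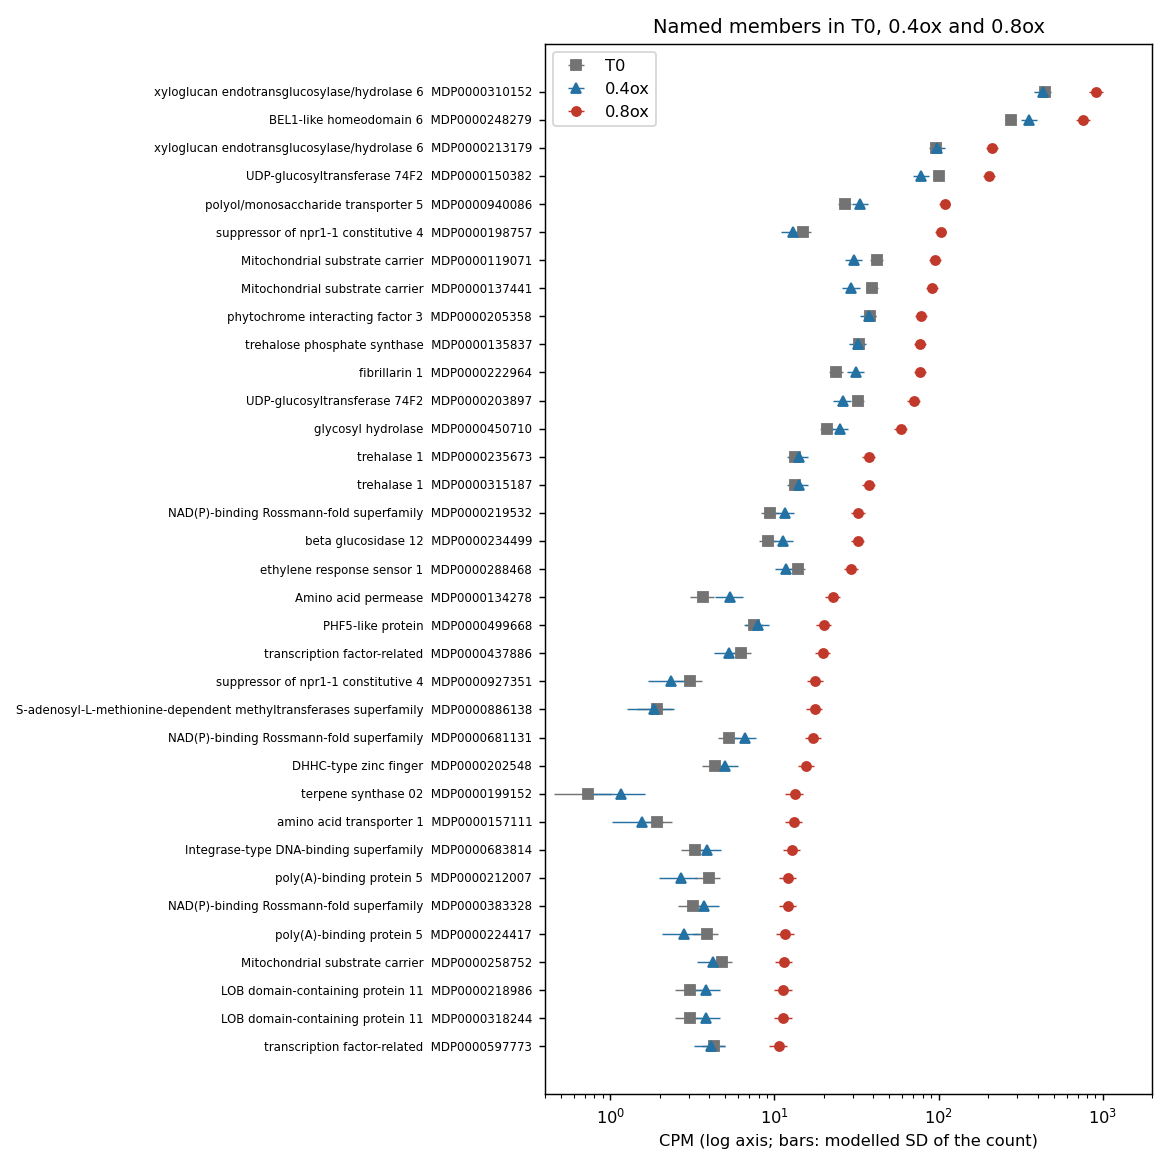
The 35 named members are ordered by their 0.8ox level, with CPM on a log axis for T0 (grey squares), 0.4ox (blue triangles) and 0.8ox (red circles), and bars for the modelled SD. In every gene the 0.8ox symbol lies to the right of the T0 and 0.4ox symbols, as the rule requires. The T0 and 0.4ox symbols lie close to each other and are furthest apart in terpene synthase 02, at 0.733 and 1.16 CPM. That gene also has the widest gap between T0 and 0.8ox, where it stood at 13.3 CPM.

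The highest counts among the unnamed members belonged to MDP0000324144, with 668 ± 60.3 CPM in T0, 926 ± 123 CPM in 0.4ox and 1353 ± 141 CPM in 0.8ox. It lay near both ratio bounds, 2.02-fold above T0 in 0.8ox and 0.47 above T0 on the log2 scale in 0.4ox. MDP0000253809 stood at 221, 284 and 580 CPM and MDP0000166116 at 153, 210 and 400 CPM. MDP0000906138 stood at 113, 134 and 269 CPM, MDP0000408971 at 88.7, 107 and 219 CPM and MDP0000807889 at 63.7, 88.5 and 130 CPM. All of these stood higher in 0.4ox than in T0, and 0.8ox/0.4ox was 1.46-fold in the first and the last of them and 1.90-fold to 2.04-fold in the others. The highest folds to T0 among the unnamed were 4.43 in MDP0000120188, with 7.10, 7.40 and 33.1 CPM, and 4.39 in MDP0000305094, with 7.02, 6.97 and 32.5 CPM. This pair shares an Arabidopsis orthologue, AT2G46490, for which no name was at hand.

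Several members share a name or an Arabidopsis orthologue, and the apple genome carries many duplicated genes. Of the 33 members with an orthologue, 19 shared it with another member. The counts of the 88 members made 86 distinct sets, since the trehalase 1 pair and the LOB domain pair were identical in T0, 0.4ox and 0.8ox. In the table with the shifted group, the 0.8ox count was under 10% of that in the other tables for 19 members (21.6%, against 15.6% of all genes with at least 10 CPM), 10 to 50% for 11 and 50% or more for 58. Named members at 0% were the second xyloglucan gene, the trehalase pair, the LOB domain pair and MDP0000383328, and MDP0000927351 had 1.48%. The poly(A)-binding genes MDP0000224417 and MDP0000212007 had 6.48% and 10.2%, and the Rossmann-fold gene MDP0000681131 had 7.61%. A further Rossmann-fold gene, MDP0000219532, had 35.9%, the AP2/ERF gene MDP0000683814 32.7% and the UDP-glucosyltransferase gene MDP0000203897 32.1%. Of the unnamed pair with a shared orthologue, MDP0000305094 had 0.25% and MDP0000120188 5.12%. For such genes the levels in T0, 0.4ox and 0.8ox are uncertain. The study's methods state that reads with several mapping places were dropped, but not how the tables came to differ, and a sharing of reads between copies was not tested.

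Beside the members, 47 other genes bore the same names, of which 42 were below 10 CPM in 0.8ox. The following were chosen after their values were seen. A second ethylene response sensor 1 gene, MDP0000242413, stood at 1.33 CPM in T0, 1.33 CPM in 0.4ox and 6.94 CPM in 0.8ox and missed only the bound on its level. In the counts paired with the shifted group, 0.8ox held 8.22% of its count used here, so the levels of this gene are uncertain too. A second polyol/monosaccharide transporter 5 gene, MDP0000841918, stood at 22.3, 2.51 and 8.91 CPM. The copies of a name thus did not all share the members' pattern.

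Keyword lists matched on gene names were set beside the share over all named genes with at least 10 CPM in 0.8ox, of which 35 of 250 (14%) were members. The members were 6 of 31 in the transport list, 3 of 14 in the cell wall list, 3 of 11 in the sugar and starch list, 2 of 13 in the amino acid list and 1 of 3 in the ethylene and ripening list, and the single gene of the phenylpropanoid and terpene list was the terpene synthase. The transcription factor list held 7 of 30, counting the DHHC-type zinc finger gene by its name and leaving out phytochrome interacting factor 3, whose name has no keyword. No member matched the lists of signalling kinases with 18 genes, acyl transfer and esters with 15, redox and oxygenases with 11, auxin with 8, translation and ribosome with 5, lipids with 5, fermentation and glycolysis with 3 and heat shock and chaperones with 2. The pair named after a receptor-like kinase carries no keyword of the kinase list. With so few genes per list, nothing is read from these counts.

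Against 1.54% of all tested genes, 221 of 515 tested named genes passed as higher in 0.8ox than in 0.4ox, with a median log2 ratio of 1.54 against 0.01. The named genes were in part picked for that difference. Members included, the count was 28 of 49 with a median of 1.78 for transport, 14 of 28 with 1.69 for the cell wall and 11 of 11 with 1.31 for sugar and starch. Lists without a member had like or higher values, with 18 of 24 and a median of 3.25 for acyl transfer and esters, 17 of 40 and 1.56 for signalling kinases and 9 of 16 and 1.49 for auxin. The transcription factor list had 11 of 53 higher, 30 lower and a median of -1.14.

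The shifted group was not used by the rule, and it asks where the members stood in fruit that came to 0.8 kPa from 0.4 kPa. That fruit was also stored longer than 0.8ox, and storage time cannot be told apart from oxygen history here. The ratio of the shifted group to 0.8ox does share the 0.8ox libraries with the choice, in which the members were high. Part of a ratio below 1 is therefore set by the choice, and the size of that part was not tested. Enough counts for a test, at least 10 in either group and more than 0 in both, were held by 71 of the 88 members. The other 17 were not tested.

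At an adjusted p under 0.001 over all 20669 tested genes, 7 of the 71 members (9.86%) passed as lower in the shifted group than in 0.8ox, against 0.416% of all tested genes. None passed as higher, against 1.54% of all tested genes. The members were chosen with high 0.8ox values, so more lower and fewer higher calls are in part set by the choice. At an unadjusted p under 0.05 the counts were 36 lower and 2 higher. The share of all tested genes at that level was not counted, so nothing is read from them. The exact test of edgeR gave 7 lower (all tested genes 0.421%) and 0 higher (1.66%). The number lower depends on the error model and threshold, with 29 of 71 (all tested genes 2.64%) when the variance was divided by the 3 libraries and 17 (1.27%) at an adjusted p under 0.05. The members' median log2 ratio shifted/0.8ox was -0.57 (median SE 0.25), and that of all tested genes 0.15.

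The lowest ratio shifted/0.8ox was that of terpene synthase 02, MDP0000199152. It stood at 19.0 ± 2.58 CPM in 0.8ox and 3.51 ± 0.872 CPM in the shifted group, on 102 and 17.1 counts. Its log2 ratio was -2.43 (SE 0.41, adjusted p = 3.75e-07), so the shifted group held 18.5% of the 0.8ox level. Amino acid transporter 1, MDP0000157111, stood at 18.7 ± 2.51 and 6.58 ± 1.19 CPM, a log2 ratio of -1.51 (SE 0.32, adjusted p = 0.00021). The receptor-like kinase gene MDP0000198757 stood at 122 ± 13.0 and 56.6 ± 6.44 CPM, a log2 ratio of -1.10 (SE 0.23, adjusted p = 7.37e-05). In 0.4ox these same genes had stood at 8.74%, 11.9% and 12.5% of their 0.8ox level, so after the shift each lay between the 2 oxygen levels.

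Among the unnamed genes that passed, MDP0000253809 stood at 583 ± 63.8 CPM in 0.8ox and 221 ± 23.5 CPM in the shifted group. Its log2 ratio was -1.40 (SE 0.22, adjusted p = 3.89e-08). MDP0000284608 stood at 83.8 ± 9.11 and 33.8 ± 4.08 CPM, a log2 ratio of -1.31 (SE 0.23, adjusted p = 2.64e-06). MDP0000906138 stood at 361 ± 39.1 and 161 ± 17.3 CPM, and MDP0000408971 at 72.9 ± 7.99 and 32.5 ± 3.95 CPM, both with a log2 ratio of -1.17. The last of them had a 0.8ox count in this table of only 27.6% of that in the other tables. In contrast to the 3 named genes, these 4 held 38.0% to 44.6% of their 0.8ox level after the shift, close to the 38.3% to 49.8% they had held in 0.4ox.

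Other named genes stood lower in the shifted group without passing the threshold. Fibrillarin 1, MDP0000222964, stood at 109 ± 11.7 CPM in 0.8ox and 61.0 ± 6.85 CPM after the shift, a log2 ratio of -0.84 (SE 0.22, adjusted p = 0.0059), and the glycosyl hydrolase gene MDP0000450710 at 83.9 ± 9.10 and 46.8 ± 5.41 CPM, also -0.84 (SE 0.23, adjusted p = 0.00749). With the ratios centred on the median of all tested genes both would pass, at -0.99. The polyol/monosaccharide transporter gene MDP0000940086 stood at 155 and 91.6 CPM, -0.76 (SE 0.22), and BEL1-like homeodomain 6, MDP0000248279, at 1031 and 659 CPM, -0.65 (SE 0.23). Ethylene response sensor 1, MDP0000288468, stood at 31.0 and 22.4 CPM, -0.47 (SE 0.26), and the xyloglucan gene MDP0000310152 at 938 and 733 CPM, -0.36 (SE 0.23). The AP2/ERF gene MDP0000683814 and the unnamed MDP0000476376 had ratios of -1.69 (SE 0.66) and -1.48 (SE 0.80) on 27.1 and 17.1 counts in 0.8ox. The lowest ratios thus included genes whose error was too wide for a call.

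All 25 named members that were tested had a level after the shift below that in 0.8ox and above the share they had in 0.4ox, with log2 ratios to 0.8ox from -2.43 to -0.11. Of the 353 tested named genes that are no members, 277 (78.5%) were below 0.8ox, 39 passed as lower and the median log2 ratio was -0.69, against -0.66 for the named members. Of all 71 tested members, 64 (90.1%) stood below 0.8ox, against 34.3% of all tested genes, and of the 46 unnamed ones 39. The level after the shift lay between those of 0.4ox and 0.8ox in 58, at or below that of 0.4ox in 6 and above that of 0.8ox in 7. The rule put 0.8ox above 0.4ox in every member, so a level between them is favoured by the choice. The share of all tested genes with such a level was not counted, and nothing is read from these counts. The median was 67.6% of the 0.8ox level after the shift and 47.4% in 0.4ox. These 2 shares have the same 0.8ox libraries as their base and are set side by side as values only. With the 58 members whose 0.8ox count in this table was 50% or more of that in the others, the median log2 ratio was -0.56 and 6 passed as lower.

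Of the 7 members above 0.8ox after the shift, all were unnamed. MDP0000391241 stood at 15.3 ± 3.08 CPM in 0.8ox and 25 ± 4.35 CPM after the shift (log2 ratio 0.71, SE 0.38), MDP0000319460 at 21.7 ± 2.77 and 30.9 ± 3.78 CPM (0.51, SE 0.26) and MDP0000363622 at 173 ± 18.2 and 222 ± 23.4 CPM (0.36, SE 0.22). The highest ratio, that of MDP0000135504, rested on 2.40 counts in 0.8ox and 13.9 counts after the shift. None of these differences passed the threshold.

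**Figure D3:**
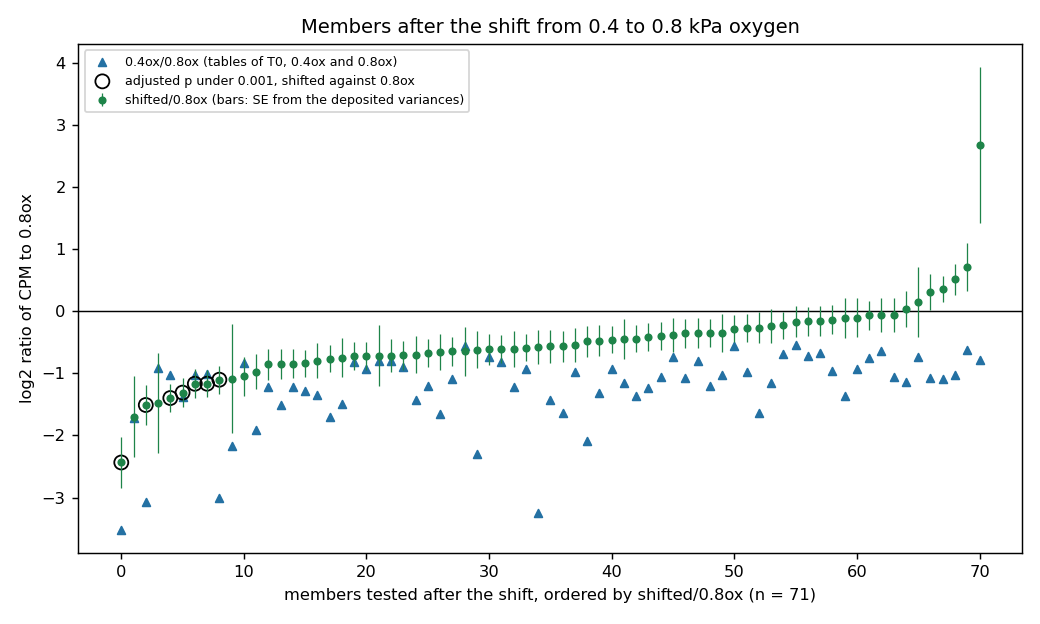
For the 71 members tested after the shift, ordered on the x axis by their ratio, the y axis gives the log2 ratio of CPM to 0.8ox. Green circles with SE bars are shifted/0.8ox, blue triangles 0.4ox/0.8ox, and black rings mark the 7 members with an adjusted p under 0.001. Of the green circles 64 lie below 0, and 58 lie between the 0.4ox triangle and the zero line.

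Genes chosen by the other patterns had other ratios. The mirror rule, at least doubled in 0.4ox and within the window in 0.8ox, gave 219 genes, of which 177 were tested after the shift, with a median log2 ratio shifted/0.8ox of 0.79. Of these, 0 passed as lower and 43 as higher, against 0.416% and 1.54% of all tested genes. Genes at least doubled at both levels numbered 766, of which 637 were tested, with a median of 0.13, 10 lower (1.57%) and 39 higher. The members' median of -0.57 lay on the opposite side of the median over all tested genes, 0.15, from that of the mirror genes. All of these sets were chosen with the 0.8ox values. The opposite sides are therefore in part set by the choice, and the size of that part was not tested.

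**Figure D4:**
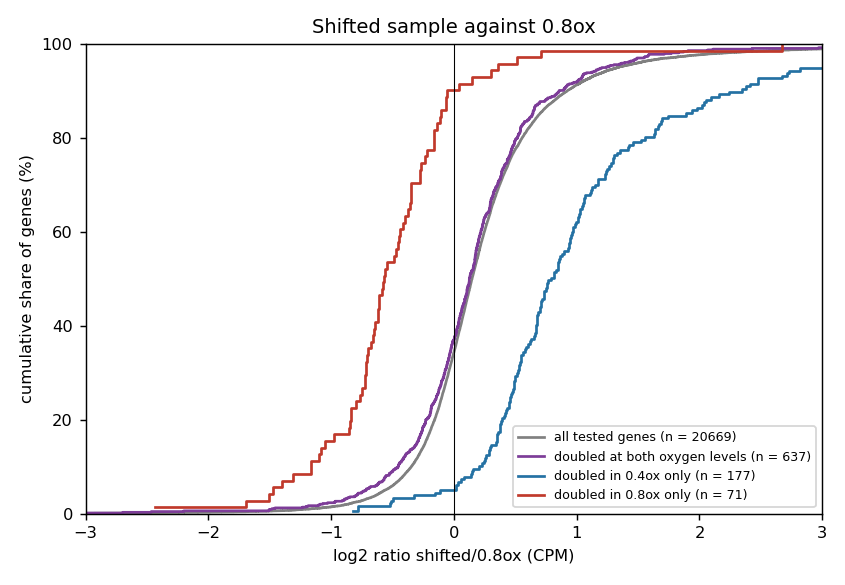
The y axis is the cumulative share of genes (%) with a log2 ratio shifted/0.8ox of CPM at or below the value on the x axis, which shows -3 to 3. The curve of the members (red, n = 71) lies left of that of all tested genes (grey), the curve of genes doubled in 0.4ox only (blue, n = 177) lies right of it, and genes doubled at both levels (purple, n = 637) follow it. The medians are -0.57, 0.15, 0.79 and 0.13 in that order.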

How the data were processed

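The authors trimmed the reads with ERNE, with 3 libraries per condition, mapped them with TopHat2 (Bowtie2) on the apple genome v1.0 and ran Cuffdiff. Its deposited output was used here: 1 estimated count per gene and condition in each table, with a modelled variance. The first 3 tables hold equal counts for a condition. The table of the shifted group holds other 0.8ox counts, so ratios of that group to 0.8ox were taken within it. Trimming with ERNE is stated for T0, 0.4ox and 0.8ox. No single library was used here.

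Estimated counts were divided by their column sum to CPM. The log2 ratio was taken on CPM + 0.5 in the rule, and without a pseudocount after the shift. Its SE came from the undivided deposited variances, which rise with the count and at high counts exceed it. Dividing ratio by SE gave a two-sided normal deviate, with Benjamini-Hochberg adjustment over all genes that had 10 or more counts in one of the conditions and a count in each. The threshold was an adjusted p of 0.001. Counts were also tested, rounded, with edgeR 4.0.16, its dispersion taken from these variances. The scripts used Python 3.11.15 with numpy 2.4.6, pandas 2.3.3, scipy 1.17.1 and matplotlib 3.10.9, and were tested on simulated data.

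The members, the lists and the rules were chosen with earlier results of these data known. Named were the 10 members with the highest 0.8ox CPM, the 8 with the highest 0.8ox/T0, all members with a gene name, the 4 lowest and 4 highest shifted/0.8ox, the 2 genes on each side of each bound, and sets with identical counts. Of other genes, only markers of ripening and hypoxia were to be named. MDP0000284608 and 2 further copies of named genes fall outside this rule and were chosen after their values were seen. Gene names come from the study's tables, of which the gene table was used in part, with 1998 genes. Sequences and coordinates were not used here.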

Additional observations from a re-analysis of the deposited data

How the results depend on the processing

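No replicate was left out, since each condition has 1 merged value. No paired analysis was possible because the labels give no replicate numbers. Most results kept their direction and their side of the threshold, among them all 0 counts of members higher after the shift.

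With the counts as deposited, that is, unscaled, all ratios moved by the difference in depth (-0.81 for 0.4ox/T0 and -0.56 for 0.8ox/T0). The rule then gave 49 genes, of which 8 were among the 88, and the median log2 ratios of the 88 members became -0.50 for 0.4ox/T0, reversed in sign, and 0.68 for 0.8ox/T0. Membership thus depends on the scaling. Median-of-ratios size factors gave 86 genes with 85 shared, and upper-quartile scaling 102 with 74 shared. A minimum of 20 CPM left 56 genes and a minimum of 5 CPM gave 109. Pseudocounts of 0.1 and 1 CPM gave 85 and 88 genes, with 81 and 83 shared. Terpene synthase 02, MDP0000199152, and the amino acid permease gene MDP0000134278 were among the members lost with 0.1 CPM. With identical counts taken once 86 members were left, and 69 whose 0.8ox count in the table of the shifted group was at least 10% of that in the others.

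The number of members lower after the shift rose from 7 to 29 with the variance divided by 3 libraries (2.64% of all tested genes) and to 17 at an adjusted p under 0.05 (1.27%). The other alternatives gave 7 to 9. Where it was taken, the share of all tested genes ran from 0.23% with no minimum count to 0.748% with at least 50 counts. Among named genes, MDP0000222964 passed with counts as deposited at -0.98 and with median centring at -0.99, and MDP0000450710 with median centring at -0.99. No named gene changed sign.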
